A study of Rattus norvegicus with 5 samples.

Results

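The transcripts described are those of 10 hypothalamic neuropeptide genes other than Trh: Tac1, Npy, Pomc, Sst, Ghrh, Avp, Gal, Oxt, Cartpt and Crh. Every probe set of the rat array whose annotation gave only 1 of these symbols was taken, which yielded 10 of the 4736 genes that the array read under a symbol of their own, and 18 of the 8740 probe sets analysed. A probe set is a group of short oligonucleotides that report on 1 transcript. Of the genes, 6 had 1 probe set, while Ghrh had 5, Avp 3, Sst 2 and Tac1 2.

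The study compared rat fetal hypothalamic cells grown from Wistar embryos of embryonic day 17 and kept for 3 days in culture. In the GFP+ population, cells had taken up a plasmid in which the minimal promoter of Trh, the gene of thyrotropin releasing hormone, drives green fluorescent protein, and fluorescent cells were collected by flow cytometry. The GFP+/- population came from cultures given the same plasmid, passed through the cytometer without selection, and so held fluorescent and non-fluorescent cells. The NT population was never transfected. RNA was pooled over 6 experiments for GFP+ cells, 3 for GFP+/- cells and 3 for NT cells, and was hybridised to 2 GFP+ arrays, 2 GFP+/- arrays and 1 NT array. The reporter marks cells by the activity of a transfected promoter fragment, not by the peptide itself. The labels call the paired arrays biological replicates, whereas the methods describe 1 pool of RNA for each population, so the p-values below measure only the spread between arrays, which may be technical.

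Neuropeptides are made as long precursors, cut and amidated along the secretory pathway, stored in dense-core granules and released on stimulation. Some hypothalamic neurons release them into the portal blood to drive or restrain the anterior pituitary (Crh, Ghrh and Sst), some send them to the posterior pituitary (Avp and Oxt), and neurons of the arcuate nucleus use them in the control of feeding (Npy, Pomc and Cartpt). Galanin, from Gal, and the tachykinins substance P and neurokinin A, from Tac1, act mainly as modulators of other neurons.

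The promoter sequences of 3 genes are printed because these were the members whose signals differed most clearly between populations: Tac1 and Npy were lowest in GFP+/- cells, and Pomc was lowest in NT cells. RefSeq promoters of the rat build GRCr8 matched 9 of the 10 genes. Each sequence is the 250 bases before the annotated start, 5′ to 3′ on the strand of the gene, which is the plus strand in each case: chr4:36645333-36645582 for Tac1, chr4:80211861-80212110 for Npy and chr6:32659103-32659352 for Pomc. Capitals mark matches on either strand to TGACG, the core of the cyclic AMP response element,, to the GC box (GGGCGG) and to the TATA box (TATAAA).
Tac1: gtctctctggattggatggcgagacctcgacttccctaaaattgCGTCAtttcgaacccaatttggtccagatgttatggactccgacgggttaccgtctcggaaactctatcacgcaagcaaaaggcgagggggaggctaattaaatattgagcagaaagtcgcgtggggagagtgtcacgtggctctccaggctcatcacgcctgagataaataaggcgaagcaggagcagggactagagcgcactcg
Npy: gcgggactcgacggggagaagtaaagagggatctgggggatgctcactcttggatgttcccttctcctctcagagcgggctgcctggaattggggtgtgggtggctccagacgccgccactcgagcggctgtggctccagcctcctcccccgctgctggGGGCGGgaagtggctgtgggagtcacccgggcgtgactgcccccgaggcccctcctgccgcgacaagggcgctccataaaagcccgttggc
Pomc: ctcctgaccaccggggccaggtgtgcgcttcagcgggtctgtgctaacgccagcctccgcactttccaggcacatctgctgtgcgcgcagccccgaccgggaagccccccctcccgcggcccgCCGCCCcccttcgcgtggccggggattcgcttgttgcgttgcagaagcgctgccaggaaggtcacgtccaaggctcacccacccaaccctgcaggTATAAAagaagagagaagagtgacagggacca
The Tac1 window held a core match, with its first base 206 bases before the start. The Npy window held a GC box 91 bases before the start, and the Pomc window a GC box at 127 and a TATA box at 32 bases. In windows of 300 bases that also took in the 50 bases after the start, the core was found in 5 of the 9 genes (Tac1, Sst, Avp, Gal and Cartpt), against 21.2% of 33469 rat promoters. The full element TGACGTCA, in which the core lies once on either strand, was found in Sst and Cartpt, against 1.83% of promoters. A GC box was found in Npy and Pomc (33.1% of promoters) and a TATA box in Pomc and Gal (14.2%). These matches describe the letters in the windows and were not tested for factor binding.

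Signals were MAS 5.0 values on a linear scale, on which every array had the same trimmed mean of 501, a higher target than the methods name, so only comparisons between arrays were read from them. The 5 median signals lay between 102.3 and 116.2. A probe set was called dim when its mean signal over the 5 arrays was not among the highest 41% of the array, which meant a mean under 175. By this measure 6 genes had 1 probe set each that was not dim: Tac1, Npy, Pomc, Sst, Ghrh and Avp. The other 12 probe sets were dim, among them the only ones of Gal, Oxt, Cartpt and Crh, and their signals spanned 4.93 to 199. A probe set's signal depends on its own oligonucleotides, so levels of different genes were not set against each other. The cultures carried neuronal transcripts on every array: Mapt, which encodes tau, gave 12752 and 10426 in GFP+ cells, 7321 and 8967 in GFP+/- cells and 10041 in NT cells. The brightest probe set of Trh itself was dim, at 115 and 141 in GFP+ cells, 109 and 106 in GFP+/- cells and 96.6 in NT cells. A second Trh probe set, also dim, gave 89.5 and 40.2 in GFP+ cells, 86.8 and 51.0 in GFP+/- cells and 121.8 in NT cells. It overlapped between GFP+ and GFP+/- cells and was highest on the NT array.

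**Figure D1:**
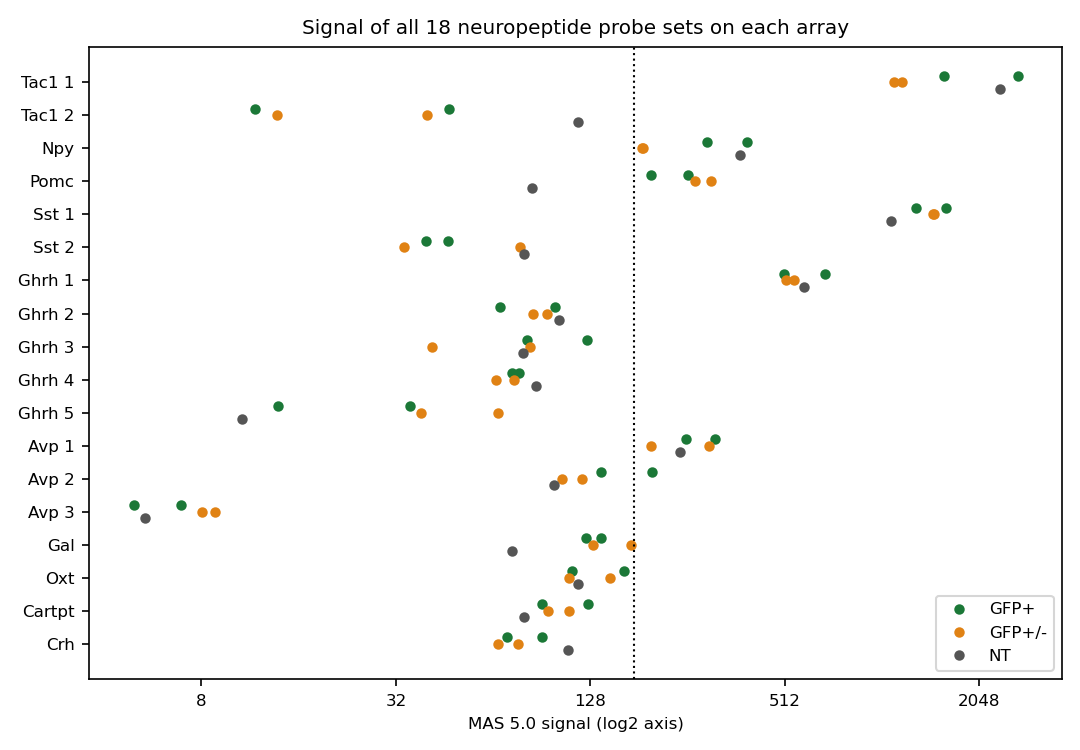
MAS 5.0 signal (log2 axis) of the 18 probe sets of the 10 neuropeptide genes, with 1 point for each array of GFP+, GFP+/- and NT cells. Numbers after a symbol order the probe sets of a gene by mean signal, and the dotted line marks the mean signal of 175 under which a probe set was called dim; 12 of the 18 were dim.

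The comparison of GFP+ with GFP+/- cells asked which transcripts accompany the fluorescent cells. Tac1 and Npy had higher signals on both GFP+ arrays than on either GFP+/- array, by close to the same factor, but neither passed the adjusted threshold. Pomc was slightly lower on both GFP+ arrays, while Sst, Ghrh and Avp overlapped between the populations.

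Tac1, the tachykinin precursor, gave signals of 2695 and 1588 on the GFP+ arrays and 1116 and 1184 on the GFP+/- arrays with its probe set M15191_s_at. The populations did not overlap, and the GFP+ arrays lay farther apart than the GFP+/- arrays. The means were 2142 ± 783 in GFP+ cells and 1150 ± 47.7 in GFP+/- cells (SD, n = 2 each), a ratio of 1.86. With limma's moderated test, the log2 difference was 0.85 (SE 0.27), unadjusted p = 0.0224 and Benjamini-Hochberg adjusted p = 0.283. A second Tac1 probe set, X56306_s_at, was dim, with signals of 46.7 and 11.7 in GFP+ cells and 13.7 and 40.02 in GFP+/- cells. Its arrays of a single population lay 3.99-fold (GFP+) and 2.91-fold (GFP+/-) apart, and its log2 difference was close to 0 (SE 0.86). The higher Tac1 signal in GFP+ cells therefore rests on 1 of the 2 probe sets, and the mean of both gave a log2 difference of 0.42.

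Npy encodes neuropeptide Y, which stimulates feeding. Its only probe set gave signals of 389.7 and 293.9 in GFP+ cells and 185.2 and 186.5 in GFP+/- cells. Both GFP+ arrays were above both GFP+/- arrays, with means of 341.8 ± 67.7 in GFP+ cells and 185.9 ± 0.979 in GFP+/- cells (SD, n = 2 each) and a ratio of 1.84. The log2 difference was 0.86 (SE 0.23), with an unadjusted p of 0.0107 and an adjusted p of 0.224 by limma. The 95% interval of the fold ran from 1.22 to 2.71 for Npy and from 1.13 to 2.88 for Tac1.

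Pomc, the precursor of adrenocorticotropin, the melanocortins and beta-endorphin, gave signals of 256.7 and 197.6 in GFP+ cells and 269.4 and 303.3 in GFP+/- cells. The lower of the GFP+/- arrays was close to the higher GFP+ array. Its log2 difference was -0.34 (SE 0.25, limma adjusted p = 0.602).

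Sst encodes somatostatin, which restrains growth hormone release. Its brighter probe set gave 1619 and 1302 in GFP+ cells and 1482 and 1475 in GFP+/- cells. The GFP+ arrays lay on either side of the GFP+/- arrays, and the 95% interval of the fold, 0.724 to 1.33, leaves room for a moderate difference either way. Ghrh, whose peptide drives growth hormone release, gave 507.8 and 680.1 in GFP+ cells and 547.6 and 517.5 in GFP+/- cells with its brightest probe set (log2 difference 0.14, SE 0.21, limma adjusted p = 0.813). Avp, the vasopressin precursor, gave 253.9 and 311.4 in GFP+ cells and 299.0 and 197.6 in GFP+/- cells (log2 difference 0.21, SE 0.28, limma adjusted p = 0.792). With these probe sets neither gene separated the populations. The paper lists an entry for vasopressin, oxytocin and a repeat among the transcripts enriched in GFP+ cells. It names no probe set for that entry, which was not matched to a member probe set here.

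Of the 18 probe sets, 0 passed the adjusted threshold of 0.05 between GFP+ and GFP+/- cells by limma, as did 0% of all 8740. At an unadjusted p under 0.05 there were 2 (Tac1 and Npy), against 13.9% of all probe sets. No overlap between arrays was seen in 3 probe sets that were higher in GFP+ cells and 3 that were lower, against 30.4% higher and 15.4% lower over the array. The median log2 difference was 0.076 over the 18 and 0.13 over all probe sets, so the signals of GFP+ cells sat slightly above those of GFP+/- cells as a whole. The differences of 0.85 and 0.86 for Tac1 and Npy were well above that shift. By the ratio of averaged signals, 0 members were over 2-fold higher in GFP+ cells, against 8.89% of all probe sets, and 1, a dim Ghrh probe set, was over 2-fold lower, against 4.18%.

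**Figure D2:**
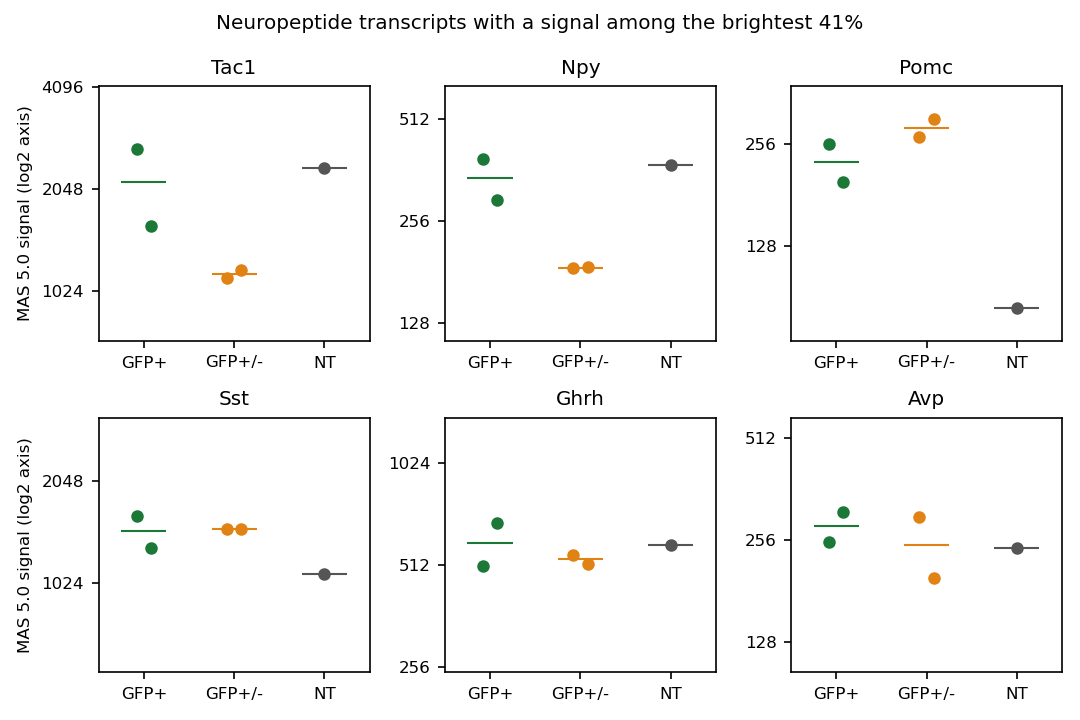
MAS 5.0 signal (log2 axis, with its own range in each panel) of the 6 genes whose brightest probe set was not dim, with a point for each array and a line at the mean of each population. Tac1 and Npy were lowest in GFP+/- cells, Pomc was lowest on the NT array, and Sst, Ghrh and Avp overlapped between GFP+ and GFP+/- cells.

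The NT array served as the baseline of cells that were not transfected. In contrasts with it, the plasmid, the transfection treatment and any difference in handling cannot be told apart. Pomc was the only member that passed the adjusted threshold against the NT array. It was higher in GFP+ cells and in GFP+/- cells alike. Both contrasts share the single NT array, which has no replicate of its own, so the spread of the other populations stands in for it.

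On the NT array the Pomc signal was 84.2, below all 4 arrays of the transfected populations. That signal is under the mean of 175 that bounds the dim probe sets. Pomc was thus counted as not dim, and kept among the brightest 41%, through its transfected arrays. The ratio of means was 2.70 for GFP+ cells, with a log2 difference of 1.42 (SE 0.31, limma adjusted p = 0.0497) and a 95% interval of 1.57- to 4.54-fold. For GFP+/- cells the ratio was 3.40, with a log2 difference of 1.76 (SE 0.31, limma adjusted p = 0.0283) and an interval of 2.00- to 5.76-fold. The call in GFP+ cells was at the edge of the threshold: it was lost when any 1 array of a transfected population was left out (adjusted p 0.0863 to 0.148), under quantile normalization (0.0578), with equal medians (0.0555), with 16 added to each signal (0.0574), with a prior variance without trend (0.124) and with only the 2 populations compared (0.144). The call in GFP+/- cells was also lost with any 1 array left out (adjusted p 0.0538 to 0.152), with a prior without trend (0.0955) and with only the 2 populations compared (0.0523), although the log2 difference stayed between 1.68 and 1.85.

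Tac1 and Npy showed the opposite arrangement, with NT signals near those of GFP+ cells. The NT signal of Tac1, 2367, fell between the GFP+ arrays, and the log2 difference of GFP+ cells was -0.19 (SE 0.33, limma adjusted p = 0.798). Its GFP+/- signals were 2.06-fold below the NT array on average (log2 difference -1.04, SE 0.33, limma adjusted p = 0.122). The NT signal of Npy, 372.6, likewise fell between the GFP+ arrays, with a log2 difference of -0.14 (SE 0.28, limma adjusted p = 0.834). Those of GFP+/- cells were 2.00-fold below it on average (log2 difference -1.004, SE 0.28, limma adjusted p = 0.0907). Both GFP+/- differences had an adjusted p under 0.05 only when, among the alternatives tried, the test was confined to the 3583 brighter probe sets (0.0309 for Tac1 and 0.0292 for Npy). For these genes, then, GFP+ and NT cells overlapped and the GFP+/- arrays were the lowest.

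Sst was lowest on the NT array, at 1088. Its log2 difference was 0.42 in GFP+ cells (SE 0.22, limma adjusted p = 0.325) and 0.44 in GFP+/- cells (SE 0.22, limma adjusted p = 0.288), short of the threshold in each. Ghrh, at 585.9, and Avp, at 243.2, had NT signals within the range of the other 4 arrays.

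Of the 18 probe sets, 1 was called higher in GFP+ than in NT cells, against 4.38% of all probe sets, and 0 were called lower, against 4.06%. In GFP+/- cells 1 was called higher, against 4.2%, and 0 lower, against 5.03%. A count of 1 in 18 is near these background shares. At an unadjusted p under 0.05 there was 1 member for GFP+ cells, against 24.3% of all probe sets, and 5 for GFP+/- cells, against 24.9%. Both GFP+ arrays were above the NT array for 8 members and below it for 5, against 41.5% and 35.9% of all probe sets, and both GFP+/- arrays were above it for 7 and below it for 8, against 35.2% and 44%. By the ratio of means, 2 were over 2-fold higher and 1 over 2-fold lower in GFP+ than in NT cells, against 14.5% and 12.3% of all probe sets. For GFP+/- cells 3 were over 2-fold higher and 3 lower, against 12.1% and 15.2%.

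**Figure D3:**
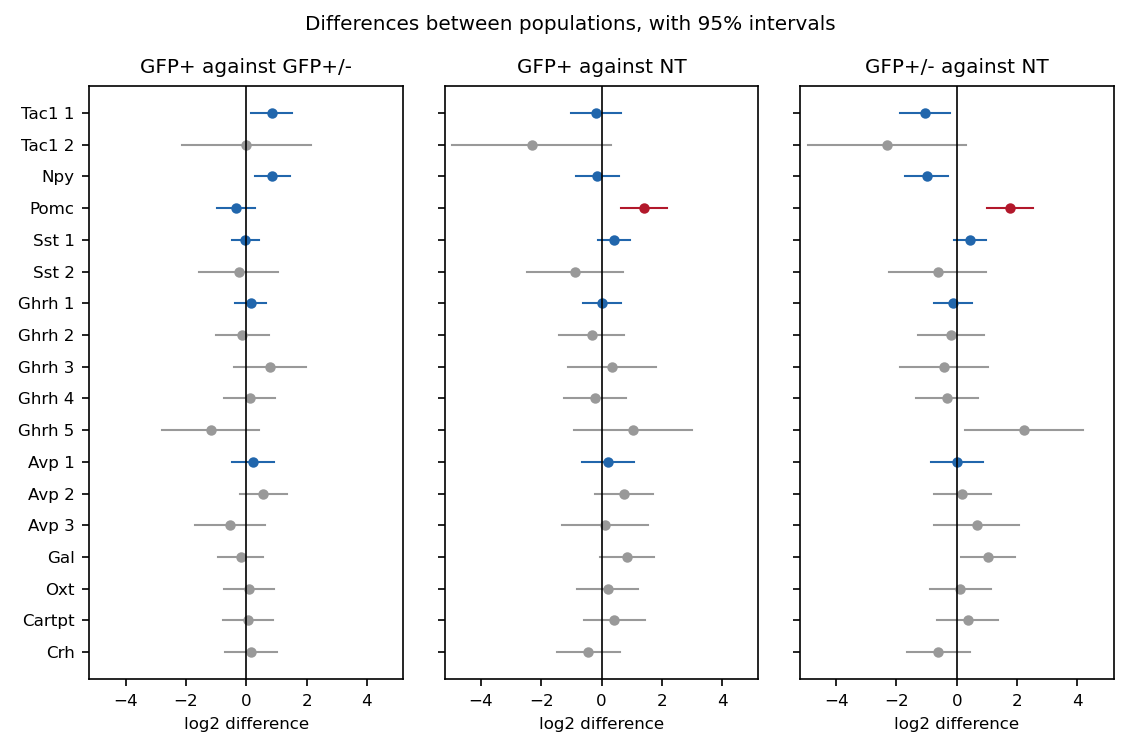
Log2 difference of the 18 probe sets in each comparison (points), with the 95% interval from the limma fit (lines). Red marks an adjusted p under 0.05, blue a probe set that was not dim and not called, and grey a dim probe set; only Pomc was called, in GFP+ and in GFP+/- cells against NT cells.

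The 4 genes with only dim probe sets showed no called difference. Gal gave signals of 124.5 and 138.0 in GFP+ cells, 130.5 and 170.7 in GFP+/- cells and 73.1 on the NT array. Like Pomc, it was lowest on the NT array, with log2 differences of 0.84 in GFP+ cells (SE 0.36, limma adjusted p = 0.237) and 1.03 in GFP+/- cells (SE 0.36, limma adjusted p = 0.153). Oxt, the oxytocin precursor, gave 112.2 and 162.6 in GFP+ cells, 109.6 and 147.1 in GFP+/- cells and 117.3 in NT cells, with full overlap. Cartpt, whose peptides reduce feeding, gave 125.6 and 90.4 in GFP+ cells, 94.6 and 110.1 in GFP+/- cells and 79.6 in NT cells, so that all 4 transfected arrays were above the NT array without a called difference. Crh, the releasing hormone of adrenocorticotropin, gave 90.6 and 70.8 in GFP+ cells, 76.6 and 66.3 in GFP+/- cells and 108.8 in NT cells, where it was highest. Dim was defined by rank alone, and whether such signals reflect a low level or none was not tested.

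The other probe sets of Ghrh, Sst and Avp were dim, and 0 of them were called in any comparison by limma. The Ghrh probe set M73486_at gave 13.8 and 35.5 in GFP+ cells, 66.4 and 38.2 in GFP+/- cells and 10.7 in NT cells, too dim to set its folds beside those of the brightest Ghrh probe set. The second Sst probe set gave 39.7 and 46.4 in GFP+ cells, 77.4 and 33.8 in GFP+/- cells and 79.6 in NT cells, where it was highest and the brighter one lowest. The second Avp probe set, M64785_g_at, gave 138.0 and 199.2 in GFP+ cells and 104.6 and 120.7 in GFP+/- cells, higher on both GFP+ arrays (log2 difference 0.56, limma adjusted p = 0.504). The third, at 4.93 to 8.82 on all arrays, was lower on both GFP+ arrays than on either GFP+/- array.

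Among the 6 genes that were not dim, likeness of pattern was measured as the root mean square difference of log2 signals, each centred on its mean over the 5 arrays, against 2333 other single-gene probe sets that were not dim. Npy was the third closest to Tac1 (0.117), after Cacna2d1 (0.0791), a calcium channel subunit, and Fer (0.105), a tyrosine kinase. The closest to Npy were Syt17 (0.0606), Ttc3 (0.0982) and Zfp148 (0.111), with Tac1 in place 6. Pomc was closest to Erp29 (0.105), a protein of the endoplasmic reticulum, Plekho1 (0.108) and Eci1 (0.126). Sst was closest to Alkbh7, Zfp64 and Adipor2, Ghrh to Abo, Hspb2 and Apbb3, and Avp to Gss, Chmp2a and Zdhhc3. With 5 arrays from 3 populations, such likeness is a description of these arrays only.

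Other genes of peptide signalling were read from lists. Of 40 other neuropeptide genes, 26 were measured and 8 were not dim. By the brightest probe set of each gene, 0 were called in any comparison by limma. Over all probe sets 0% were called between GFP+ and GFP+/- cells, and 4.06% to 5.03% in each direction against NT. At an unadjusted p under 0.05 there were 1, 2 and 1, against 13.9%, 24.3% and 24.9% of all probe sets. The order is GFP+ with GFP+/-, GFP+ with NT and GFP+/- with NT cells. Pmch, the precursor of melanin concentrating hormone, gave 266 and 348 in GFP+ cells, 373 and 208 in GFP+/- cells and 893 in NT cells. Its log2 difference from NT was -1.55 in GFP+ cells (limma adjusted p = 0.0759) and -1.68 in GFP+/- cells (limma adjusted p = 0.0606). Penk, the enkephalin precursor, gave 185 and 251 in GFP+ cells, 337 and 379 in GFP+/- cells and 336 in NT cells, lower on both GFP+ arrays without a called difference. A dimmer probe set was called: M11597_at of Calca, the gene of calcitonin and its related peptide, gave 67.1 and 42.2 in GFP+ cells, 23.7 and 16.2 in GFP+/- cells and 2.58 in NT cells, with a limma adjusted p of 0.021 for GFP+ and 0.0499 for GFP+/- against NT cells, whereas the brightest Calca probe set, also dim, was not called.

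Of 29 receptors and binding proteins of the members, 23 were measured and only 4 were not dim. Crhbp, which binds the Crh peptide, gave 228 and 133 in GFP+ cells, 76.5 and 83.1 in GFP+/- cells and 36.1 in NT cells, and was called higher in GFP+ than in NT cells (log2 difference 2.27, limma adjusted p = 0.0451). Mc4r, a receptor for the melanocortins made from Pomc, gave 39.98 and 22.8 in GFP+ cells, 11.04 and 11.9 in GFP+/- cells and 110 in NT cells, and was called lower in GFP+/- than in NT cells (log2 difference -3.27, limma adjusted p = 0.0341). Both genes were dim. By the brightest probe set of each gene, these were the only calls of the list. Over all probe sets 4.38% were called higher in GFP+ than in NT cells and 5.03% lower in GFP+/- than in NT cells. A count of 1 in 23 genes is near these shares.

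Of 21 genes of granules and prohormone processing, 18 were measured and 13 were not dim, and 0 were called between GFP+ and GFP+/- cells. By the brightest probe set of each gene, 0 were called higher and 3 lower than on the NT array in GFP+ cells (Scg2, Cadps and Qpct). The shares over all probe sets were 4.38% and 4.06%. In GFP+/- cells 0 were called higher and 4 lower (the same 3 and Chgb), against 4.2% and 5.03% of all probe sets. Scg2, a granin, gave 396 and 243 in GFP+ cells, 184 and 260 in GFP+/- cells and 1601 in NT cells, with log2 differences from NT of -2.37 in GFP+ cells (limma adjusted p = 0.0247) and -2.87 in GFP+/- cells (limma adjusted p = 0.0167). Cadps, which primes granules for release, gave 1058 and 764 in GFP+ cells, 487 and 501 in GFP+/- cells and 2079 in NT cells. Chgb, another granin, gave 1783 and 1101 in GFP+ cells, 765 and 907 in GFP+/- cells and 2345 in NT cells. Like Tac1 and Npy, Cadps and Chgb were higher on both GFP+ than on both GFP+/- arrays, but their NT signal was above both GFP+ arrays. Other probe sets of the list gave calls that their brightest ones did not. The Furin probe set X55660_at, which was not dim, gave 249.1 and 284.2 in GFP+ cells, 315.2 and 249.6 in GFP+/- cells and 65.7 in NT cells. This probe set of a prohormone convertase was called higher than NT in GFP+ cells (log2 difference 2.02, limma adjusted p = 0.0215) and in GFP+/- cells (2.09, adjusted p = 0.0198). The dim Scg5 probe set M63901_g_at was called lower than NT in GFP+ cells (log2 difference -1.87, limma adjusted p = 0.0452) and in GFP+/- cells (-2.69, adjusted p = 0.0199). The median log2 difference of the 18 measured genes was 0.18, 0.04 and -0.08 in the 3 comparisons, in the order given above, beside 0.13, 0.06 and -0.09 over all probe sets.

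Of 41 transcription factor genes of the developing hypothalamus, 19 were measured and 9 were not dim. Between GFP+ and GFP+/- cells 0 were called, as were 0% of all probe sets. Against NT, 1 was called higher and 1 lower in GFP+ cells, beside 4.38% and 4.06% of all probe sets. In GFP+/- cells 2 were called higher and 1 lower, beside 4.2% and 5.03%. The counts are too small to set the list apart from these shares. Sox11, a factor of young neurons, was called higher in GFP+ cells (log2 difference 1.21, limma adjusted p = 0.0409) and in GFP+/- cells (1.74, adjusted p = 0.0181) than in NT cells. Pou3f2, which is needed for the neuroendocrine neurons of the paraventricular nucleus in mice, was called higher in GFP+/- than in NT cells (log2 difference 1.64, limma adjusted p = 0.0320). Pou3f3 was called lower in GFP+ cells (log2 difference -2.26, limma adjusted p = 0.0199) and in GFP+/- cells (-1.49, adjusted p = 0.0473) than in NT cells. Calls against the single NT array were fragile over the whole array: with any 1 array left out, 1 probe set was called higher and 0 lower in GFP+ than in NT cells. For GFP+/- against NT cells the calls fell to 1 higher and 0 lower without either GFP+/- array, and to 153 or 158 higher and 170 or 175 lower without a GFP+ array.

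Some cell markers and measures of RNA quality were arranged over the arrays like these members, and others were not. The summed signal of the 4 measured markers of dividing cells was lowest in GFP+ cells, at 6692 and 12169. It was 12933 and 13446 in GFP+/- cells and 14208 in NT cells. Of 13 neuron markers, 9 were measured and their summed signal was 28585 and 24535 in GFP+ cells, 18678 and 20515 in GFP+/- cells and 36788 in NT cells. It was lowest where Tac1 and Npy were lowest, but unlike theirs its NT value was above both GFP+ arrays. In these bulk samples, fewer cells of a type and less RNA per cell cannot be told apart. The summed signal of 7 fibroblast markers was 5331 and 11289 in GFP+ cells, 27990 and 28372 in GFP+/- cells and 10577 in NT cells. The sum of the 2 measured choroid plexus markers ran the same way, at 2998 and 5149 in GFP+ cells, 18223 and 17311 in GFP+/- cells and 3678 in NT cells. This sum mostly reflects the 1 marker that was not dim. Its log2 difference was -2.19 between GFP+ and GFP+/- cells and 2.3 between GFP+/- and NT cells. The medians of both markers were -1.11 and 0.838. The sum of the 5 measured microglia markers, of which 1 was not dim, was lowest in GFP+/- cells, like Tac1 and Npy. It was 808 and 611.6 in GFP+ cells, 472 and 343.6 in GFP+/- cells and 678.4 in NT cells. The part of these in the differences of Tac1 and Npy was not tested.

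The 2 measured erythroid markers summed to 3502 and 3711 in GFP+ cells, 8668 and 5991 in GFP+/- cells and 380 in NT cells, and were thus lowest, like Pomc, on the NT array. So was the sum of the 6 markers of mural and endothelial cells, at 2043 and 3798 in GFP+ cells, 9054 and 11316 in GFP+/- cells and 1644 in NT cells. Over all 6 the median log2 difference from NT was only 0.113 in GFP+ cells and 0.155 in GFP+/- cells. For the 3 that were not dim it was 0.268 and 1.32. The summed astrocyte markers (11689 to 15438 on the 4 transfected arrays and 10484 on the NT array) and oligodendrocyte markers (846.1 to 1239 and 736) were lowest on the NT array too. By the median log2 difference from NT, however, astrocyte markers were slightly lower, at -0.11 in GFP+ cells and -0.096 in GFP+/- cells. The oligodendrocyte medians were 0.603 and 0.49. Anterior pituitary cells also express Pomc. The 7 pituitary markers summed to 1158 and 1091 in GFP+ cells, 657.7 and 982 in GFP+/- cells and 785.3 in NT cells. By limma 0 of them were called in either comparison with NT, against 4.06% to 5.03% of all probe sets in each direction. The ratio of the 3′ to the 5′ probe set of Gapdh, which rises as RNA is degraded or shortened during labelling, was 14.6 and 17.6 in GFP+ cells, 12.7 and 14.2 in GFP+/- cells and 5.45 in NT cells. It thus separated the NT array from the other arrays in the same way as Pomc did. The same ratio for beta-actin was 22.9 and 18.7 in GFP+ cells, 31.4 and 14.4 in GFP+/- cells and 10.9 in NT cells. The part of these in the Pomc difference was not tested.

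**Figure D4:**
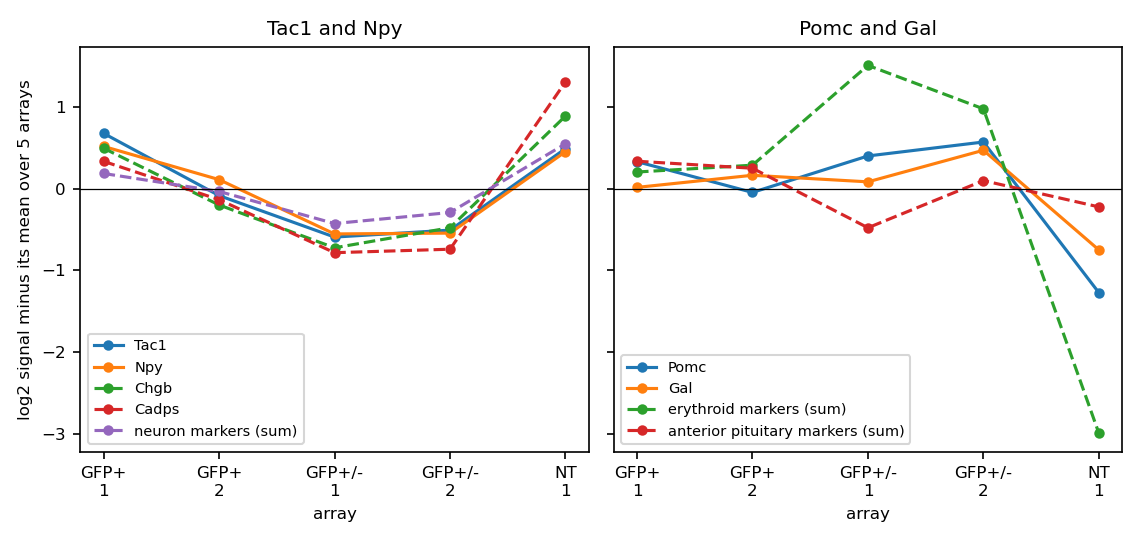
Log2 signal minus its mean over the 5 arrays for Tac1 and Npy beside Chgb, Cadps and the summed neuron markers (left), and for Pomc and Gal beside the summed erythroid and anterior pituitary markers (right), with lines that only join the points of 1 item. The items set beside the members were chosen after their values were seen; on the left all are lowest on the GFP+/- arrays, and on the right the erythroid sum, Pomc and Gal are lowest on the NT array.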

How the data were processed

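The authors hybridised labelled RNA to rat expression arrays and made the deposited values, which are linear signal intensities, with MAS 5.0 software, scaling each array to a common mean. The trimmed mean found here, 501 on each array, is above the target that the methods state. Control probe sets (59 of 8799) were left out. Of the 8740 others, the platform annotation gave 1 symbol to 7006, several to 308 and none to 1426. Signals under 1 were set to 1 and log2 values were fitted with limma 3.58.1 in R 4.3.3 (lmFit, eBayes with an intensity trend), with all 5 arrays in 1 fit and 1 mean per population. Benjamini-Hochberg adjustment ran over all 8740 probe sets, and an adjusted p under 0.05 was a call. The ratio of averaged signals with a 2-fold threshold is the measure of the study's methods and has no test. The number of arrays limits the precision.

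Named were all member probe sets; from each related list, up to 4 genes with the largest log2 difference among those not dim, and those called; and the 3 genes most like each member that was not dim. The text gives those that bear on the members. Each gene of a list was read from its brightest probe set. The members and lists were chosen with earlier results of these data known. The fit was tested on simulated data, in which changes larger than those of Tac1 and Npy were added to brighter probe sets of the GFP+ arrays. It therefore does not show how well differences of their size, or contrasts with the single NT array, are found. Alternatives were quantile normalization, equal medians, 16 added to each signal, the brightest 41% only, a prior without trend, only the compared populations, a replicate block, averaging a gene's probe sets and leaving out each array.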

Additional observations from a re-analysis of the deposited data

How the results depend on the processing

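With 2 arrays at most per population, the direction of small differences was not fixed by these data. Of 310 values of single genes under the alternatives, 263 kept their direction and side of the threshold and 30 reversed, none of them called. Many of the 310 could not reverse, because some alternatives change only the test and leave the log2 difference as it was. These were the brighter probe sets only, the prior without trend, only the compared populations and the replicate block. Leaving out an array of a population outside the comparison had the same limit. The count of 263 therefore overstates how stable the directions were. Between GFP+ and GFP+/- cells, Oxt reversed to -0.069 under quantile normalization and to -0.067 with equal medians, Cartpt to -0.090 and -0.094 under the same settings, Crh to -0.0096 under quantile normalization, and Ghrh to -0.014 with equal medians and -0.057 as the mean of its probe sets. For GFP+ against NT cells, Sst reversed to -0.24 as the mean of its probe sets and Ghrh to -0.038 with equal medians. For GFP+/- against NT cells, Avp reversed to 0.062 under quantile normalization, 0.11 with equal medians, 0.00085 with 16 added and 0.28 as the mean of its probe sets, Sst to -0.10 and Ghrh to 0.23 as such means.

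With 1 array left out, log2 differences of GFP+ from GFP+/- cells ranged from -0.38 to 0.0064 for Gal, -0.18 to 0.36 for Oxt, -0.089 to 0.51 for Avp, -0.18 to 0.13 for Sst, -0.010 to 0.35 for Crh, -0.17 to 0.30 for Cartpt and -0.068 to 0.35 for Ghrh. Against NT, GFP+ cells ranged from -0.063 to 0.47 for Oxt, -0.58 to 0.19 for Tac1, -0.34 to 0.064 for Npy and -0.21 to 0.21 for Ghrh, and GFP+/- cells from -0.10 to 0.33 for Oxt and -0.30 to 0.30 for Avp. Tac1 and Npy kept a higher signal in GFP+ than in GFP+/- cells, from 0.47 to 1.23 for Tac1 and 0.66 to 1.07 for Npy, with adjusted p from 0.248 to 0.623 and 0.267 to 0.576.

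The number of members called for GFP+ against NT cells, 1, became 0 under quantile normalization, with equal medians, with 16 added, with a prior without trend, with only the 2 populations compared, and in each fit with 1 array left out (0 to 0). For GFP+/- against NT cells it became 3 among the brightest 41%, where fewer probe sets were tested, and 0 with a prior without trend, with only the 2 populations compared and with 1 array left out (0 to 0). The cause was not tested. Over all probe sets, GFP+ against NT gave 383 higher and 355 lower calls, but 1 and 1 with a prior without trend, and 1 and 0 with only the 2 populations compared.

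The count over 2-fold apart between GFP+ and GFP+/- cells, 1, became 0 with 16 added and 0 among the brightest 41%, and ranged from 1 to 3 with 1 array left out (3 without GFP+ replicate 2, 2 without GFP+/- replicate 2). Against NT it became 1 in place of 3 for GFP+ cells and 3 in place of 6 for GFP+/- cells among the brightest 41%. The replicate numbers were not shown to pair the arrays (correlation of same-numbered deviations 0.0632, and 0.197 for the brightest 41%, with 2 pairs): with the replicate block 0 members were called, as without it, and 1 probe set was called higher and 1 lower over the array.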

Other observations

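A further peptide gene, a receptor and a processing enzyme of the lists were arranged differently over the populations. Pdyn, the dynorphin precursor, gave 1504 and 1943 in GFP+ cells, 1640 and 1513 in GFP+/- cells and 1208 in NT cells, lowest on the NT array like Sst and without a called difference by limma. Sstr2, a receptor of somatostatin, had log2 differences of 0.52 between GFP+ and GFP+/- cells and -0.30 between GFP+ and NT cells. Between GFP+/- and NT cells the difference was -0.83, again without a call in any comparison. The paper lists Sstr2 among the transcripts past its 2-fold threshold in GFP+ cells. That threshold applies to a ratio of averaged signals, while the 0.52 given here is a limma difference of mean log2 signals. The measures are not the same, so 0.52 is not a direct check of that entry. Cpd, a carboxypeptidase of the secretory pathway, gave 777 and 331 in GFP+ cells, 580 and 404 in GFP+/- cells and 140 in NT cells, so that, unlike Scg2, Cadps and Chgb, it was lowest on the NT array.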
